A study of Mus musculus with 6 samples.

Results

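The genes described here are annotated transcription units of the type antisense, genes read from the strand opposite to another gene. They were selected on their read counts as every antisense gene of the deposited table whose counts summed to at least 600 over the 6 libraries, with Tsix, Kcnq1ot1, Airn, Gas5, Zfas1 and the Snhg genes left out. Of 2574 antisense genes among 52386 genes, 36 reached that sum, and 34 remained without Airn and Kcnq1ot1. The sums ran between 608 and 3688 counts, with a median of 1148. The members nearest the threshold were Hoxb5os with 608 counts and Gm12454 with 613 counts, and the nearest antisense genes outside it were Gm44777 with 598 counts and 9130221H12Rik with 594 counts. Only summed counts chose the members, so diet played no part in the rule, but their levels were used and are given as a description.

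RNA was measured in GFP-positive nephron progenitor cells sorted from mouse E18.5 kidneys. CD-1 females had been mated with Six2 Cre tg/+ males, a transgene whose Cre is driven by the promoter of Six2, and all libraries share this cross and sort. There were 3 libraries from embryos of food-restricted dams and 3 from embryos of dams on the control diet. The restricted diet stands as 30% of daily caloric intake in the sample labels and as 70% in the series text, and this was not settled here. The design text names the libraries biological replicates, but no label says how many embryos or litters a library holds. The p-values given here rest on library-to-library spread, which may be technical. The fit used, limma, also draws each gene's spread towards that of genes at a like level.

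Antisense transcripts can arise from a promoter shared with a neighbour that is read in the other direction, from a start inside the sense gene, or from a gene beyond its end. Some are known to act on the gene they overlap, as at imprinted loci, where an antisense RNA of the paternal allele silences its neighbour, while for most no function is known. Nephron progenitors are the Six2-positive cells of the cap mesenchyme that renew themselves and form the epithelium of the nephron. The arrangement is therefore counted over all members and named for some of the pairs.

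Total counts were 6515127, 14188081 and 16763479 in food-restricted libraries 1 to 3, against 12338593, 10881013 and 10686582 in control libraries 1 to 3, so food-restricted library 1 was the shallowest. Six2, the defining gene of the sorted cells, had 3825, 4083 and 4059 normalized counts in food-restricted libraries and 4380.0, 4065 and 4036 in control libraries. Of 8 nephron progenitor markers 2 fell, Meox1 and Itga8, and the list summed to between 20963 and 21612 normalized counts in food-restricted libraries and between 22501 and 22717 in control libraries. All 6 proximal tubule markers fell in food-restricted libraries, where they summed to between 3118 and 3170 normalized counts per library, against between 5471 and 5860 in control libraries, and none was at 0. All 4 macrophage markers rose, with sums between 327 and 419 in food-restricted libraries and between 211 and 229 in control libraries, and 3 of 6 stromal markers rose. Xist rose and all 4 Y-linked genes tested fell (limma, adjusted p under 0.05), so the sex of the embryos and the diet cannot be told apart; no member lies on X or Y. In such bulk samples fewer cells of a type and less RNA per cell cannot be told apart.

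Together the 34 antisense genes took a small and even share of each library. They held 0.0673%, 0.0654% and 0.0677% of all counts in food-restricted libraries 1 to 3, against 0.0628%, 0.0657% and 0.0683% in control libraries. Per kilobase of annotated exon, the mean of the 2 diets ran from 21.4 normalized counts for A830082K12Rik, with a median of 60.7, to 756 for Gm15564. Exon lengths ran from 497 bases in Rab26os to 8345 bases in Gm16070, and 8 members consisted of 1 exon block.

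Of the 34, 32 overlapped a gene of the opposite strand. In 12 the 5′ ends of both genes overlapped (head-to-head), in 10 the 3′ ends did (tail-to-tail), 5 lay inside the sense gene and 5 held the sense gene within their own span. C130021I20Rik and 2810402E24Rik overlapped none. Where several genes overlapped, the protein-coding gene with the longest overlap was taken as the sense gene.

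Promoter windows were found for 12 of the 34 members in the RefSeq table of the GRCm38.p6 build, each with 250 bases before and 50 bases after the start. Shown here are the windows of Wt1os and C130021I20Rik, and for Brip1os that of its neighbour Brip1. These 3 members were among the 8 most counted, and each starts beside a gene read the other way. Others of the 8, such as E130307A14Rik beside Rev3l, also start beside such a gene and are not shown. Capitals mark matches on either strand to the TATA box letters TATAAA, the CCAAT box letters CCAAT, the GC box letters GGGCGG or the E-box letters CACGTG. The other strand of a CCAAT match is written ATTGG.
Wt1os, chr2:105126461-105126760, minus strand: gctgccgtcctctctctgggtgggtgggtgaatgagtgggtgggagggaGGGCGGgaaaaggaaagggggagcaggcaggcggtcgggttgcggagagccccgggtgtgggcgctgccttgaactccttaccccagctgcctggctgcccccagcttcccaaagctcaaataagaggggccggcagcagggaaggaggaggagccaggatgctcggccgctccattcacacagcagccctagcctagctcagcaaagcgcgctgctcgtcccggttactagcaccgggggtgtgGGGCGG
C130021I20Rik, chr2:33640943-33641242, plus strand: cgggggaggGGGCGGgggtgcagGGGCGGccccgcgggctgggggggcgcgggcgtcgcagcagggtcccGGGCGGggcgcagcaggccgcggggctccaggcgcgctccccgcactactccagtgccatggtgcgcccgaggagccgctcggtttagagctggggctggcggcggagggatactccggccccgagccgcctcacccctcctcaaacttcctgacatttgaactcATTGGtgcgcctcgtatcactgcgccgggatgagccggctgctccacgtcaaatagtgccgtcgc
Brip1 with the start of Brip1os, chr11:86201144-86201443, minus strand: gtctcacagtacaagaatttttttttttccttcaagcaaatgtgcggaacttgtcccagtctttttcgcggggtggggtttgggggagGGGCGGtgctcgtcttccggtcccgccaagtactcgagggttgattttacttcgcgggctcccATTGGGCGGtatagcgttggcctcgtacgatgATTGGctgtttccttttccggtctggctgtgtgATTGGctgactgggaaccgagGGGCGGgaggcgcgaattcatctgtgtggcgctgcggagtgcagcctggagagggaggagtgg
Counted from the first base printed, the start of Wt1os is at base 251 and that of Wt1 at base 232, with 19 bases between the starts in the deposited coordinates. The start of C130021I20Rik is at base 251 and the RefSeq start of Lmx1b, read the other way, at base 156. In the deposited coordinates Lmx1b starts 682 bases from C130021I20Rik, outside the window. In the last window Brip1 starts at base 251 and Brip1os, read the other way, at base 74, in the deposited coordinates. No RefSeq start of Wt1 or Brip1os fell within the window shown for its pair. None of the windows held the TATA box or E-box letters. The GC box letters were found 2 times beside Wt1os, 3 times beside C130021I20Rik and 3 times in the Brip1 window. The CCAAT box letters were found 1 time beside C130021I20Rik and 3 times in the Brip1 window, where 1 match shares bases with a GC box match. Of all 32817 windows, 13.6% held the TATA box letters, 37.4% the CCAAT box letters, 35.6% the GC box letters and 7.15% the E-box letters, so the letters are common and a match is no more than a description.

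Food restriction was compared with the control diet over all 25157 genes that had deposited normalized counts. Among the 34 antisense genes 1 passed an adjusted p under 0.05 (limma, Benjamini-Hochberg), and it was lower in food-restricted libraries; 4.74% of all genes tested passed in either direction, made up of 2.5% lower and 2.24% higher. Among genes with at least 600 counts the share was 9.87%, and by type it was 15.2% of 99 lincRNA genes and 9.78% of 9585 protein-coding genes, against 2.94% of the antisense genes. The differences between these shares were not tested. At an unadjusted p under 0.05 there were 7 of the 34, 4 of them with a higher and 3 with a lower mean in food-restricted libraries, or 20.6% against 26.6% of the genes with at least 600 counts. The median log2 fold change was 0.01 over the 34, -0.01 over the lincRNA genes and -0.00 over all genes tested. The 95% limma interval of the fold change stayed within 1.5-fold either way in 29 of the 34 and within 2-fold in all 34. Its SE draws a gene's spread towards that of genes at a like level. From their own libraries alone the SE was 0.38 for Rab26os, 0.33 for B930036N10Rik and 0.33 for Gm15564. In the fit it was 0.19, 0.14 and 0.11 for the same genes, so these bounds hold for the limma intervals only.

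**Figure D1:**
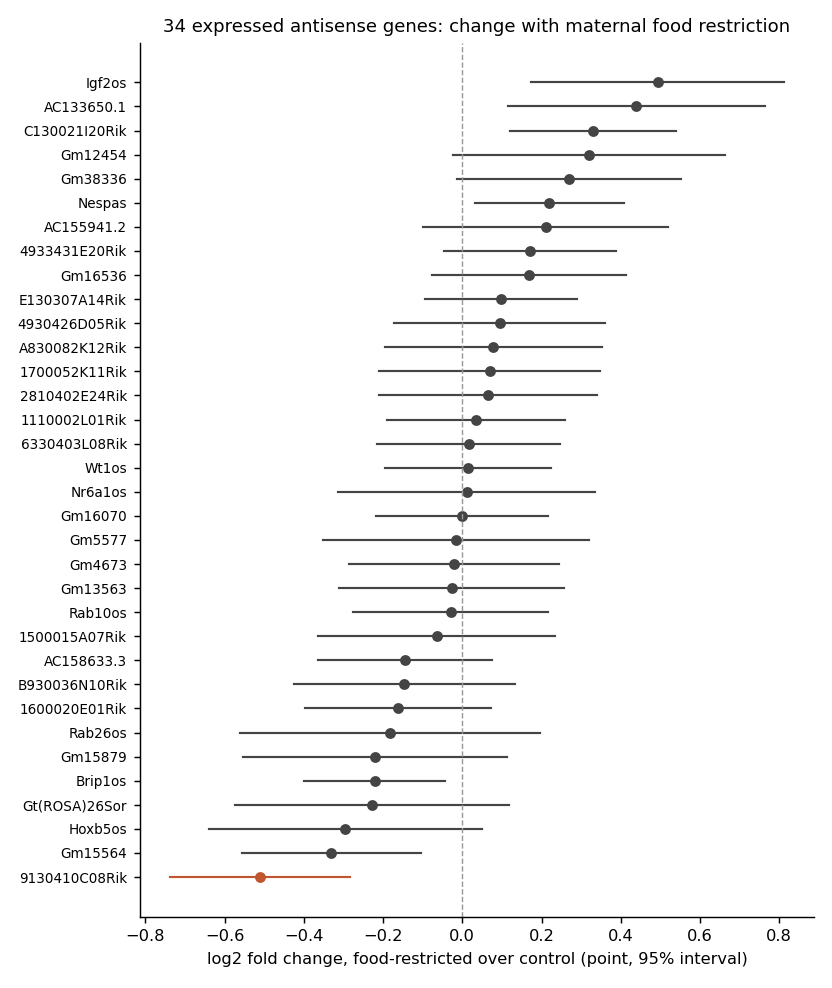
Each row is an antisense gene; the point is its log2 fold change, food-restricted over control, and the bar its 95% interval from the limma fit (3 libraries per diet). 9130410C08Rik, in colour, was the 1 gene past the threshold, at -0.51, and the others lie between -0.33 for Gm15564 and 0.49 for Igf2os.

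9130410C08Rik, at chr4:114817161-114902859 on the minus strand (GRCm38), fell in food-restricted libraries. It is an uncharacterised gene with 2 exon blocks of 1088 bases in all that begins beyond the 3′ end of Foxd2, a forkhead transcription factor gene. Food-restricted libraries 1 to 3 had 188, 217 and 210.5 normalized counts, against 295, 267 and 316 in control libraries. Each food-restricted library lay below each control library. The mean was 205 ± 14.8 in food-restricted and 293 ± 24.9 in control libraries (SD, n = 3 each), a log2 fold change of -0.51 with an SE of 0.11, or 0.702-fold (limma, adjusted p = 0.00202). In the authors' deposited table the same gene has a log2 fold change of -0.50 and an adjusted p of 0.010. Leaving out each library in turn kept its adjusted p between 0.00341 and 0.0349, and it missed the threshold in a fit with a gene length trend removed from each library, with a log2 fold change of -0.48 and an adjusted p of 0.0589. The proximal tubule markers given above fell in the same libraries and the macrophage markers rose, and their part in this difference was not tested.

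Its sense gene by the rule, Gm12830, lies inside it and had 6 counts, all in food-restricted library 2, so no ratio could be formed. Foxd2 averaged 683 ± 67.4 normalized counts in food-restricted and 595 ± 68.9 in control libraries, a log2 fold change of 0.20 (limma, adjusted p = 0.180). For Foxd2os, the transcript divergent from Foxd2, the means were 931 ± 16 in food-restricted and 1026 ± 44.0 in control libraries, a log2 fold change of -0.14 (limma, adjusted p = 0.273). Neither passed the threshold. Without food-restricted library 1 Foxd2 did pass, at a log2 fold change of 0.28 and an adjusted p of 0.0367.

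C130021I20Rik starts beside Lmx1b, a LIM homeodomain transcription factor gene known from podocytes. It had 329, 322 and 379.7 normalized counts in food-restricted libraries, against 252, 305 and 264 in control libraries, and the groups did not overlap. Its log2 fold change was 0.33 with an SE of 0.11, just outside the threshold (limma, adjusted p = 0.0534). Over 16 other fits its adjusted p ran from 0.0342 to 0.354 and passed in 7 of them. Lmx1b itself had 1029.9, 1020.2 and 1033 normalized counts in food-restricted libraries, against 993, 919.8 and 869.6 in control libraries, a log2 fold change of 0.15 (limma, adjusted p = 0.231). Per kilobase of exon, C130021I20Rik stood at 83.0 normalized counts in food-restricted and 66.1 in control libraries, and Lmx1b at 211 counts per kilobase in food-restricted and 190 in control libraries.

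Wt1os, the antisense partner of the zinc finger gene Wt1 that nephron progenitors need, did not differ detectably. Its normalized counts were 301, 295 and 349 in food-restricted libraries, against 273, 329.8 and 333 in control libraries. The log2 fold change was 0.01, with a 95% interval from -0.19 to 0.22 (limma, adjusted p = 0.974). Wt1 had 3125, 3208 and 3231 normalized counts in food-restricted libraries, against 2975, 3069 and 2880.0 in control libraries, a log2 fold change of 0.10 (limma, adjusted p = 0.251). Per kilobase Wt1 stood at 515 and Wt1os at 75.3 in food-restricted libraries, and Wt1 at 480 and Wt1os at 74.6 in control libraries. By overlap alone the sense gene of Wt1os was Gm11060, which had no counts.

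Brip1os starts 177 bases from Brip1, which encodes a DNA repair helicase, spans Ints2, a subunit of the Integrator complex, and overlaps Med13, a subunit of the Mediator kinase module. It had 393, 422 and 480.0 normalized counts in food-restricted libraries, against 478, 515 and 513 in control libraries. Food-restricted library 3 reached into the range of the control libraries. Its log2 fold change was -0.22 with an SE of 0.09 (limma, adjusted p = 0.164). Brip1 averaged 223 ± 6.80 normalized counts in food-restricted and 258 ± 19.3 in control libraries, a log2 fold change of -0.21 (limma, adjusted p = 0.382). For Ints2 the means were 1041 ± 16.8 in food-restricted and 1161 ± 61.8 in control libraries, a log2 fold change of -0.16 (limma, adjusted p = 0.173). Med13 averaged 4691 ± 79.7 in food-restricted and 4745 ± 167 in control libraries, a log2 fold change of -0.02 (limma, adjusted p = 0.909). None of these genes passed.

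Igf2os is read from the strand opposite Igf2, the fetal growth factor gene expressed from the paternal allele, and overlaps its exons by 98 bases. It had 169, 159.6 and 139 normalized counts in food-restricted libraries, against 129, 80.3 and 129 in control libraries. The groups did not overlap, and control library 2 lay apart from the other 2 control libraries. The log2 fold change was 0.49, the highest of the 34, with an SE of 0.16 in the limma fit and 0.24 from its own libraries alone. Igf2os missed the threshold (limma, adjusted p = 0.0579). It passed in 1 of 16 other fits, without control library 3, at an adjusted p of 0.0461. Without control library 2 the log2 fold change was 0.27, with an adjusted p of 0.483 in limma.

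Igf2 rose in the same libraries. It had 16024, 16452 and 16198 normalized counts in food-restricted libraries, against 13905, 14230.1 and 14739 in control libraries, a log2 fold change of 0.18 with an SE of 0.03 (limma, adjusted p = 1.85e-05). It missed the threshold in 1 of 16 other fits, with the length trend removed, at a log2 fold change of 0.16 and an adjusted p of 0.212. Per kilobase of exon Igf2os stood at 0.937% of Igf2 over all libraries, the lowest such share among the members. The ratio of Igf2os to Igf2 had a log2 change of 0.31 with an SE of 0.26 (limma, adjusted p = 0.868). A change of the antisense gene beyond that of Igf2 was not detectable in this ratio fit. The SE of the ratio was wider than the 0.16 of Igf2os and the 0.03 of Igf2 alone.

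Nespas is the imprinted antisense transcript of the Gnas locus, which encodes the stimulatory G protein alpha subunit. Its normalized counts were 389, 449 and 433 in food-restricted libraries, against 361, 389.8 and 339.9 in control libraries. Food-restricted library 1 and control library 2 stood at the same level, and the other food-restricted libraries lay above. It had a log2 fold change of 0.22 with an SE of 0.09 (limma, adjusted p = 0.205). Gnas averaged 7365 ± 324 in food-restricted and 7252 ± 12.3 in control libraries, a log2 fold change of 0.02 (limma, adjusted p = 0.855).

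**Figure D2:**
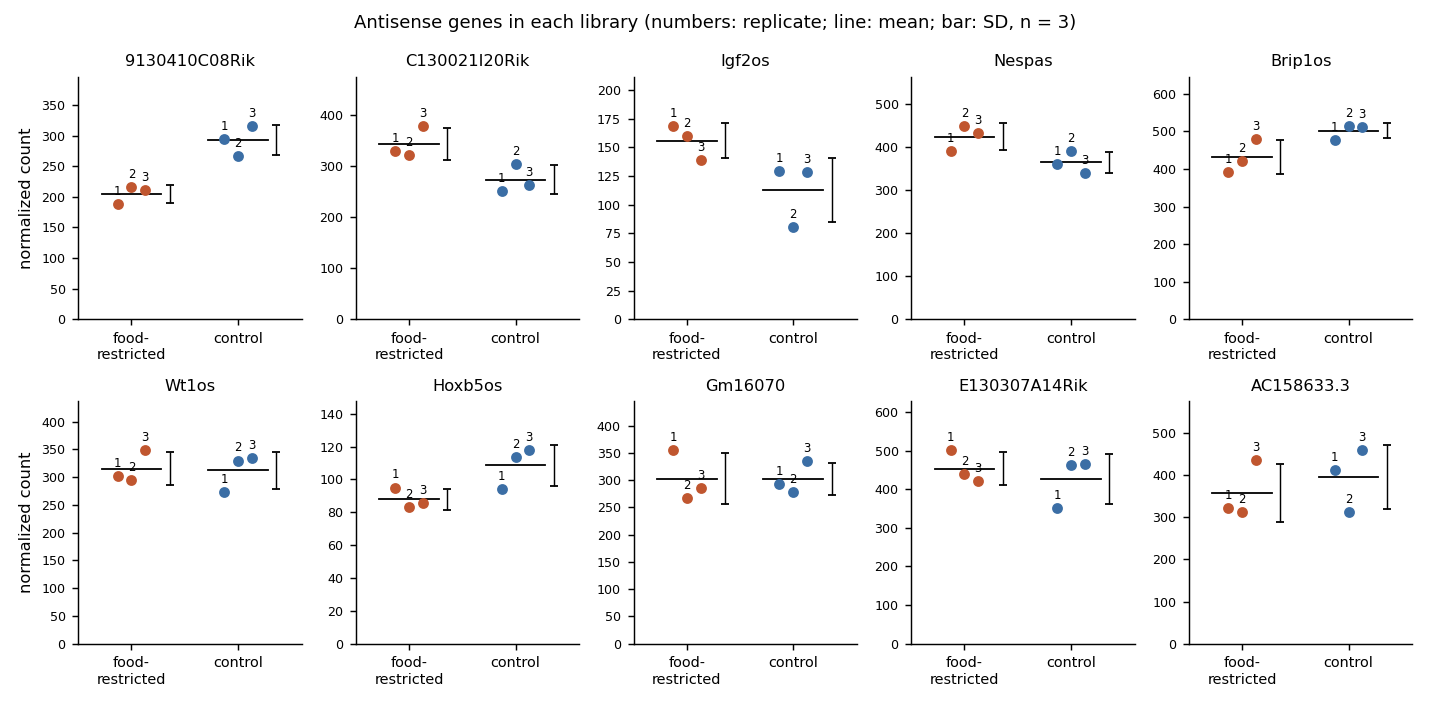
Normalized counts of 10 antisense genes in each library, food-restricted left of control; numbers are library numbers, lines means and bars SD (n = 3). In 9130410C08Rik the food-restricted libraries lie between 188 and 217 and the control libraries between 267 and 316, whereas in Wt1os and Gm16070 the libraries of both diets share a range.

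Hoxb5os was the 1 member from a Hox cluster, the ordered gene arrays that set position along the body axis. It spans Hoxb6 and Hoxb5 on the opposite strand and ends beside Hoxb7. Food-restricted libraries had 95.1, 83.0 and 85.9 normalized counts, against 94.1, 114 and 118 in control libraries. Control library 1 lay within the food-restricted range, and the log2 fold change was -0.30 with an SE of 0.17 (limma, adjusted p = 0.429). Hoxb6 rose, with 1157, 1289 and 1155 normalized counts in food-restricted libraries, against 1012, 1017 and 1012 in control libraries, a log2 fold change of 0.24 (limma, adjusted p = 0.0122).

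The other genes of the cluster lie on both sides of Hoxb5os. Hoxb5 had a log2 fold change of 0.20 (limma, adjusted p = 0.187), while Hoxb7 fell at -0.59 (adjusted p = 0.00151), Hoxb8 at -0.37 (adjusted p = 0.00755) and Hoxb9 at -0.46 (adjusted p = 4.61e-05). Hoxb1, Hoxb2, Hoxb3 and Hoxb4 had log2 fold changes between -0.40 and 0.04 and did not pass. Hoxb6 lost its call without control library 1 or 2 or food-restricted library 2, with adjusted p up to 0.196, and Hoxb8 without control library 2 or 3 or food-restricted library 3, with adjusted p up to 0.138. With the length trend removed both lost their calls, Hoxb6 at 0.26 (limma, adjusted p = 0.127) and Hoxb8 at -0.36 (limma, adjusted p = 0.207). Hoxb7 and Hoxb9 passed in every alternative fit run. Hoxb7 is also 1 of 5 ureteric markers, of which it alone passed. Their sums lay between 174 and 247 normalized counts in food-restricted libraries and between 276 and 299.8 in control libraries. Hoxb7 itself made up most of these sums, with 141, 153 and 146 in food-restricted libraries and 207, 235 and 223 in control libraries. The other ureteric markers had adjusted p of at least 0.710 (limma). The part of ureteric cells in the Hoxb values was not tested. The log2 ratio of Hoxb5os to Hoxb6 had a change of -0.54 with an SE of 0.25 (limma, unadjusted p = 0.0432, adjusted p = 0.666).

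**Figure D3:**
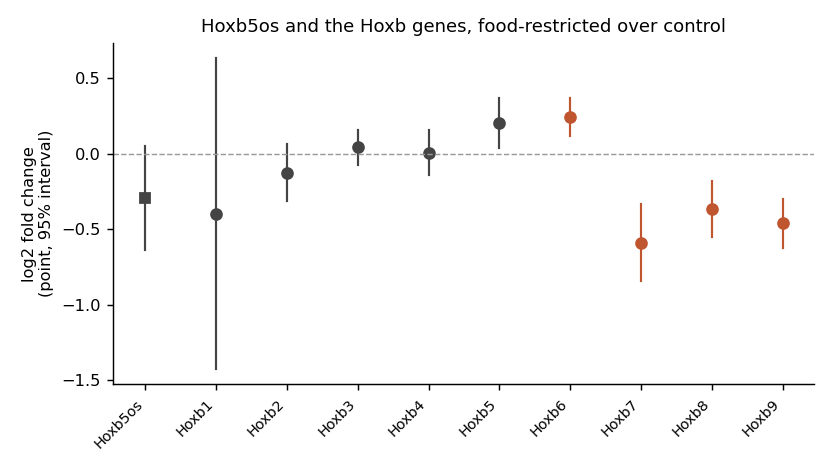
Log2 fold change, food-restricted over control, with 95% intervals (limma, 3 libraries per diet) for Hoxb5os, drawn as a square, and the Hoxb genes tested, drawn as circles and coloured where past the threshold. Hoxb5os lies at -0.30, Hoxb6, which rose, at 0.24, and Hoxb7, which fell, at -0.59.

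Rab26os, B930036N10Rik and Gm15564 had a wider spread among food-restricted libraries than the rest. Coefficients of variation there were 47.1% for Rab26os, 33.9% for B930036N10Rik and 32.1% for Gm15564, while the next was 19.2% and the median over the 34 was 10.1%. In each of the 3 genes food-restricted library 1 was the highest food-restricted library. They were singled out after their values were seen.

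Gm15564 was the most counted member and the highest per kilobase. It had 752, 508 and 405 normalized counts in food-restricted libraries, against 515, 786 and 760.2 in control libraries. The groups overlapped: food-restricted library 1 lay among the control libraries and control library 1 among the food-restricted libraries. Its log2 fold change was -0.33 (limma, adjusted p = 0.0807), with an SE of 0.11 in the limma fit, which draws a gene's spread towards that of genes at a like level, and 0.33 from its own libraries. Leaving out food-restricted library 1 gave -0.57 (limma, adjusted p = 0.000315), leaving out control library 1 gave -0.53 (limma, adjusted p = 0.0310), and leaving out food-restricted library 3 gave -0.13 (limma, adjusted p = 0.733).

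A stretch of 72 bases of a Gm15564 transcript matched Lars2, the mitochondrial leucyl-tRNA synthetase gene, at 98.6% identity on the same strand. Lars2 had 176926, 122396 and 98589 normalized counts in food-restricted libraries, against 146210.1, 196941 and 166603 in control libraries. Gm42418, a gene that overlaps a ribosomal RNA repeat, had 851364, 590393 and 499137 in food-restricted libraries, against 749703, 917263 and 843983 in control libraries. All 3 genes had the same order of levels among the food-restricted libraries, and control library 1 was the lowest control library in each. The stretch held 1 mismatch. Reads that lie wholly within its matching bases could not be assigned to 1 gene by sequence alone, whereas longer reads could, and read length is not given here. The Gm15564 value is uncertain to that extent, and how much of it comes from Lars2 was not tested.

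Rab26os lies inside Rab26, a small GTPase gene with 30 counts in all, and its single exon holds Snord60, a C/D box small nucleolar RNA of a class that guides methylation of ribosomal RNA. Snord60 has no count in the table. The stretch is shown because reads of the small RNA and of Rab26os cannot be told apart there; capitals mark the 78 bases of Snord60 and the flanks are 30 bases each, from the GENCODE transcript at chr17:24528446-24528583, plus strand (GRCm38).
Rab26os with Snord60: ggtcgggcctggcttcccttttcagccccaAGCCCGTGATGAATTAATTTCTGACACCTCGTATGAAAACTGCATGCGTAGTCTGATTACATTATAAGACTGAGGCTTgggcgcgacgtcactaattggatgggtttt
Rab26os had 164, 82.2 and 72.8 normalized counts in food-restricted libraries, against 96.8, 115 and 129.7 in control libraries. Food-restricted library 1 was above all control libraries and food-restricted libraries 2 and 3 were below them. The log2 fold change was -0.18 (limma, adjusted p = 0.722). B930036N10Rik likewise holds a small nuclear RNA gene, Gm24871 of 116 bases, which has no count, and overlaps 634 bases of Alyref2. It had 329, 232 and 166 normalized counts in food-restricted libraries, against 214, 326 and 247 in control libraries (limma, log2 fold change -0.15, adjusted p = 0.687). These were the 2 members whose exons held an annotated small RNA gene on the same strand.

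**Figure D4:**
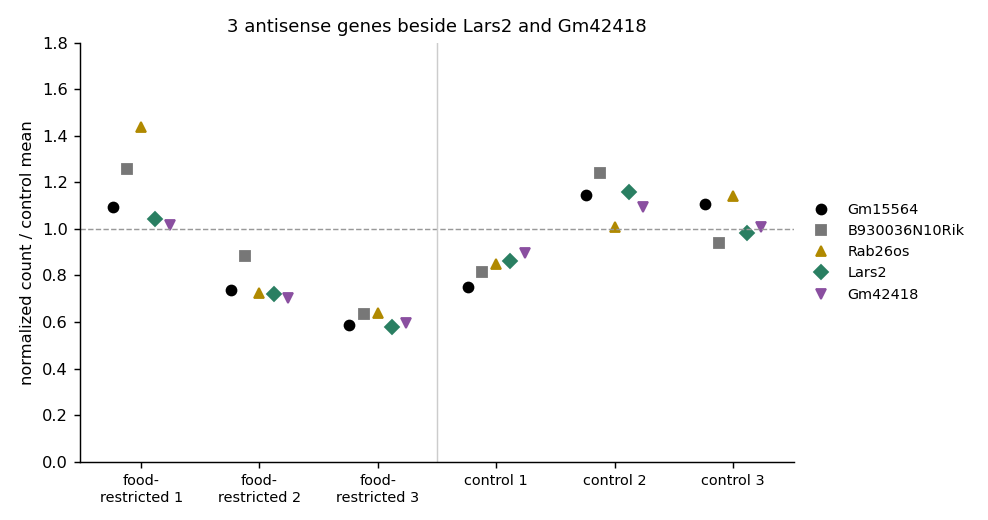
Normalized count in each library divided by the control mean of the gene, for 3 antisense genes, Lars2 and Gm42418; food-restricted libraries stand left of control libraries. In all 5 genes food-restricted library 1 is the highest of the food-restricted libraries and food-restricted library 3 the lowest.

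The remaining members of the 8 most counted differed little by diet. Gm16070, head-to-head with Crispld1 over 602 bases, had 356, 268 and 286 normalized counts in food-restricted libraries, against 293, 278 and 335 in control libraries (limma, log2 fold change -0.00, 95% interval -0.22 to 0.22, adjusted p = 0.998). E130307A14Rik, which overlaps Traf3ip2 and starts beside Rev3l, the catalytic subunit of DNA polymerase zeta, had 502, 439 and 420.3 in food-restricted libraries, against 350.4, 463 and 465 in control libraries. Its log2 fold change was 0.10 (limma, adjusted p = 0.699), while Rev3l rose at 0.16 (limma, adjusted p = 0.00735). Rev3l lost its call without control library 1 or 3 or food-restricted library 3, with adjusted p up to 0.0725. With a length trend removed it stood at 0.10 (limma, adjusted p = 0.496), and with the trend taken from genes of at least 600 counts at 0.11 (limma, adjusted p = 0.116).

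AC158633.3 shares much of its sequence with other genes. Over 4339 of the 6046 bases of its transcript it matched D10Wsu102e at 96.4% identity. Parts of the same stretch also matched Akap9 over 164 bases and Gm42826 over 167 bases, so its counts are uncertain. AC158633.3 had 322, 311 and 435 normalized counts in food-restricted libraries, against 412, 312 and 459 in control libraries. The groups overlapped (limma, log2 fold change -0.14, adjusted p = 0.584). Of all 34 members, 13 shared at least 60 bases at 95% identity or more with a gene elsewhere. Among them, Brip1os matched Synrg over 169 bases, AC133650.1 matched Acaca over 187 and A830082K12Rik matched Ppp2ca over 125. The matches of 4933431E20Rik to D10Wsu102e and of B930036N10Rik to Scaf11 held 73 and 67 bases. How far such stretches enter the counts of these members was not tested.

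Among the other members 4 had libraries that did not overlap between diets, all higher in food-restricted libraries. In all, 7 of the 34 did not overlap, or 20.6%, against 29.2% of the genes with at least 600 counts. AC133650.1, which starts within Tmem42, had 118, 141 and 134 normalized counts in food-restricted libraries, against 90.4, 112 and 86.8 in control libraries, a log2 fold change of 0.44 (limma, adjusted p = 0.119). Gm12454, head-to-head with the carbonic anhydrase gene Car9, had 106, 109 and 106 in food-restricted libraries, against 89.4, 83.5 and 83.6 in control libraries, a log2 fold change of 0.32 (limma, adjusted p = 0.369). Its 3 libraries of each diet lay close together, and its SE was 0.171 in the limma fit but 0.035 from its own libraries alone. Gm38336, inside the exchange factor gene Arhgef4, had 149.6, 184 and 152 in food-restricted libraries, against 132, 136 and 133 in control libraries (limma, log2 fold change 0.27, adjusted p = 0.356). 4933431E20Rik, tail-to-tail with Eps8l3, had 275, 288 and 274 in food-restricted libraries, against 261, 232 and 251 in control libraries (limma, log2 fold change 0.17, adjusted p = 0.488). Eps8l3 had 13 counts in all. 4933431E20Rik starts within Gstm5, which had a log2 fold change of -0.16 (limma, adjusted p = 0.575). The ratio of 4933431E20Rik to Gstm5 had a log2 change of 0.33 (limma, adjusted p = 0.699). None of these passed the threshold.

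Rab10os, tail-to-tail with Rab10, had 185, 224 and 233 normalized counts in food-restricted libraries, against 231, 231 and 192 in control libraries (limma, log2 fold change -0.03, adjusted p = 0.95). Rab10, which acts in exocytosis, fell, with 1313, 1399 and 1302 in food-restricted libraries, against 1529.8, 1500.2 and 1571 in control libraries (limma, log2 fold change -0.20, adjusted p = 0.0305). That call was lost in 5 of the 6 fits that left out a library, the exception being the fit without food-restricted library 2, with adjusted p up to 0.170, and with the length trend removed, at 0.165. Gm5577, tail-to-tail with the late endosomal GTPase gene Rab7, averaged 105 ± 19.2 in food-restricted and 105 ± 1.58 in control libraries.

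Other members with known genes opposite them were A830082K12Rik at the nuclear receptor gene Nr2f1, Nr6a1os at Nr6a1, 6330403L08Rik at the growth factor gene Pdgfa and 1110002L01Rik at the kinesin gene Kif3c. Their log2 fold changes lay between 0.01 and 0.08, and none passed. Nr6a1os averaged 115 ± 11.2 normalized counts in food-restricted and 115 ± 20.5 in control libraries, and per kilobase it exceeded its sense gene, at 1544% of Nr6a1. Gt(ROSA)26Sor, the ubiquitously used transgene locus, had 82.7, 107 and 82.0 in food-restricted libraries, against 114, 107 and 95.4 in control libraries (limma, log2 fold change -0.23, adjusted p = 0.584). The 10 members not described one by one, such as 1600020E01Rik at Pcbp1 and Gm16536 at Bace1, had adjusted p between 0.562 and 0.969.

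Antisense and sense genes were also compared directly, as the log2 ratio of their normalized counts. Of 904 pairs tested, 30 of them with members, 0 passed an adjusted p under 0.05 (limma), so the share called was 0%; at an unadjusted p under 0.05 there were 64 pairs, or 7.08%, of which 4 were members. These 4 were Rab26os to Rab26 (log2 change 1.05), Gm12454 to Car9 (-0.70), Gm15564 to Parp9 (-0.57) and Hoxb5os to Hoxb6 (-0.54). Rab26 and Car9 had at most 7.51 normalized counts in any library. Adjusted p of the member pairs ran from 0.632 to 0.998. The ratio fit draws a pair's spread towards that of pairs with a like antisense level, also those whose sense gene has few counts. For Brip1os to Ints2 the SE of the ratio change was 0.22, against 0.09 for Brip1os and 0.06 for Ints2 alone. The fit could therefore miss ratio changes of modest size, and the lack of calls does not show that ratios were unchanged.

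For 19 pairs the sense gene also had at least 600 counts. Across these genes, which share the same 6 libraries, the antisense and sense log2 fold changes had a Pearson r of 0.29 and a Spearman rho of 0.40, given as a description with no test. Ratio changes lay between -0.54 and 0.31, with a median SE of 0.24, and the median size of a change was 0.14. Among the sense genes of these 19 pairs 3 passed the diet test, Igf2 and Hoxb6 as higher and Rab10 as lower. Of all genes with at least 600 counts 9.87% passed, and the difference was not tested. The antisense gene passed beside none of the 3, but none of their ratios passed either.

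**Figure D5:**
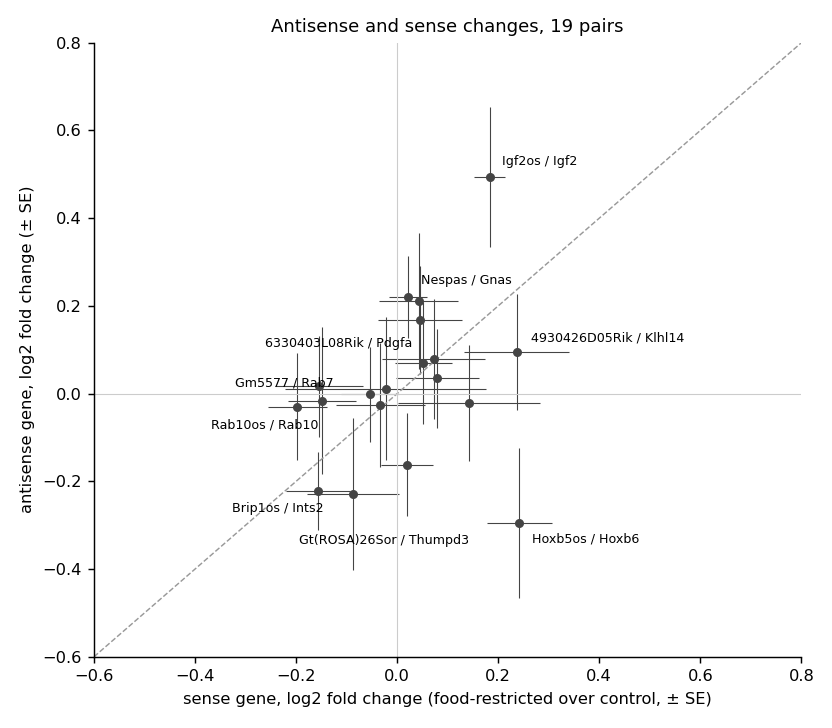
Log2 fold change, food-restricted over control, of the antisense gene (vertical) against that of its sense gene (horizontal) for 19 pairs, with SE bars from the limma fit; the dashed line marks equal change. Igf2os and Igf2 lie at 0.49 and 0.18, and Hoxb5os and Hoxb6 at -0.30 and 0.24.

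The library kit keeps the strand of the RNA, but how strand was set when reads were counted is not stated. Of the annotated antisense genes, 69 have exons that lie wholly within exons of the opposite strand; 58 of them had at least 1 count, with 850 counts in all. For 39 of these the sense gene had at least 600 counts, and the antisense level per kilobase was at the median 1.2% of the sense level, with a 90th percentile of 12%. Among the 19 member pairs it was 35.4% at the median, and Igf2os at 0.937%, 1600020E01Rik at 4.72%, Rab10os at 8.81% and Gm16070 at 11.2% lay below that percentile. These 4 have only 1.84%, 1.73%, 2.33% and 6.57% of their exon bases within exons of the opposite strand. The percentile, from genes wholly within such exons, is therefore not a like measure for them. Among the members that share was highest in 1110002L01Rik, at 67.1%, followed by Gm13563 at 52.1%. How far reads of the sense strand reach the counts of any member was not tested.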

How the data were processed

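RNA-seq libraries were made with the SMARTer Stranded Pico Input kit, a strand-specific method for total RNA, per the labels' protocols. Per the submitters' processing notes, reads were processed with TopHat2 2.1.1, cutadapt 1.18 and bcl2fastq 2.18.0.12 on the GRCm38 build, and HTSeq 0.6.0 and DESeq2 1.22.1 are also named. Strand setting and annotation release are not given in the sources used here. Per gene, the authors deposited a raw read count, a count divided by a size factor (normalized count, a signal scaled across libraries), and their own log2 fold change and adjusted p-value. Of 52386 genes, 6727 carry a mark in place of a count, and none of them was used.

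The members and lists were chosen with earlier results of these data known. The deposited normalized counts of 25157 genes were tested as log2(value + 1) with limma 3.58.1 in R 4.3.3 (linear model, trended empirical Bayes, Benjamini-Hochberg adjustment over all genes, threshold 0.05, two-sided); fold changes on this scale are slightly understated for low genes. Ratios of antisense to sense gene were tested by the same tool over all pairs, with the spread trended on the level of the antisense gene alone. Named with values by library were the members past the threshold, the 8 most counted, and Hox and kidney development members; others named were chosen after their values were seen. Exon lengths came from the GENCODE annotation of GRCm38 and shared stretches from blastn 2.17.0 (at least 60 bases, 95% identity). Replicate numbers did not pair the libraries. Depth, from 6515127 to 16763479 counts, limits the precision of the least counted members. Intervals cover the spread between the libraries as drawn by limma towards that of genes at a like level, not each gene's own spread alone.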

Additional observations from a re-analysis of the deposited data

How the results depend on the processing

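The diet values of the members were recomputed under 16 other fits, their counts also under 2 other count thresholds, and the antisense-to-sense ratios and 5 sparsely counted sense genes under fewer. 9130410C08Rik passed in 15 of the 16. It missed in the fit with the length trend removed, at a log2 fold change of -0.48, where 0 members were lower and 92 genes passed in all, 23 of them as higher; with the trend taken from genes of at least 600 counts, an alternative chosen after seeing the data, its log2 fold change was -0.40 (limma, adjusted p = 0.0253) among 1059 genes that passed. The number of members called higher was 1, C130021I20Rik, with a pseudocount of 5, trimmed mean of M values scaling, upper-quartile scaling, genes with a mean normalized count of at least 10, genes with at least 1 CPM in at least 3 libraries, and limma-voom. It was also 1 at a summed count of at least 300, which held 77 antisense genes and added Dnm3os. Under limma-voom 2 members were lower, the other being Gm15564. There Gm42418 had a log2 fold change of 0.0130 (limma-voom, adjusted p = 0.968), reversed in sign. In the main fit it stood at -0.40 (limma, adjusted p = 4.86e-06), though its libraries overlapped between the diets.

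Leaving out each library gave between 0 and 1 members higher and between 1 and 2 lower, and a median log2 fold change over the members between -0.0238 and 0.0627, the highest without control library 3. C130021I20Rik was the member called higher without control library 2 and Igf2os without control library 3. Gm15564 was the added lower member without control library 1 or food-restricted library 1. Over all genes these fits called between 564 and 1357. The replicate block, whose numbers do not pair the libraries (correlations of same-numbered libraries -0.09, 0.01 and -0.04 over 11878 genes), left 0 members higher and 1 lower and called 980 genes. Rab10 and D10Wsu102e lost their calls under it. In the main fit D10Wsu102e was higher in food-restricted libraries at a log2 fold change of 0.14 (limma, adjusted p = 0.0337), and it passed in 9 of 16 other fits. Of the 34 members 19 kept their sign in all 16 fits, and the 15 that did not had a log2 fold change of at most 0.18 in size. No antisense-to-sense ratio of a member passed in any fit of the ratios that was run, also with the sense gene chosen by count or, chosen after seeing the data, by nearest 5′ end. All of these ratio fits trended the spread on the antisense level alone, so they share the wide SE described above. The cause of these shifts was not tested. The planned edgeR and DESeq2 fits were not run; limma-voom was the fit to the counts that was run.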
